A study of Mus musculus with 6 samples.

Results

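The miR-30 family comprises 5 related hairpin types, miR-30a to miR-30e, each able to give a strand from its 5p arm and a strand from its 3p arm. All hybrids whose miRNA name was miR-30 followed by a letter from a to e and an arm were taken, which gave 11 of the 298 mature strands in the table (5 from 5p arms and 6 from 3p arms) and 409 of the 15680 hybrid reads. A hybrid is a read in which a miRNA and the mRNA fragment held with it by AGO2 have been ligated, as obtained by CLASH, in which cross-linked AGO2 complexes are purified and their RNAs joined and sequenced. The cells were P19, a mouse embryonic carcinoma line derived from a teratocarcinoma. The WT group was Dicer +/+, and the HM group was Dicer HM/-, with the RNase IIIb hotspot mutation E1797G in 1 Dicer1 allele and a loss-of-function truncation in the other, both made by CRISPR. There were 3 WT and 3 HM libraries, labelled as biological replicates. HM is a single edited clone, obtained through a heterozygous knockout clone, so the genotype cannot be told apart from other features of that clone, and the study describes silencing of the miRNA cluster on chromosome 12 in it.

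In a miRNA hairpin the RNase IIIb domain of Dicer cuts the 5p arm and the RNase IIIa domain cuts the 3p arm, so the RNase IIIa cut also sets the first base of a 3p strand. Bases 2 to 8 of a miRNA, the seed, lead its pairing with mRNAs, and a shift of the first base by a single position therefore changes which letters form the seed. The 5p strands of the miR-30 family are widely expressed and usually taken as the guides, with known roles in restraining epithelial to mesenchymal transition and in differentiation. The 3p strands are usually taken as the passengers.

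The mature strands are shown to make the grouping by seed visible, and the species prefix mmu is left out of their names elsewhere. They were read from RefSeq (GRCm38.p6), which matched 7 of the 11 strands. Seed bases 2 to 8 are in capitals, and all 5p strands printed have the same seed, whereas the 3p strands fall into a pair of seed groups. The other members are miR-30b-5p, miR-30b-3p, miR-30d-5p and miR-30d-3p.
mmu-miR-30a-5p: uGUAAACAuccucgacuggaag
mmu-miR-30e-5p: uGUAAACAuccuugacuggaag
mmu-miR-30c-5p: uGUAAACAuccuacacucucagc
mmu-miR-30a-3p: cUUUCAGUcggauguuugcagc
mmu-miR-30e-3p: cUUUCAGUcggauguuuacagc
mmu-miR-30c-1-3p: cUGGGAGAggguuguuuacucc
mmu-miR-30c-2-3p: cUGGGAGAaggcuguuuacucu
Counted from the 5′ end, miR-30a-3p and miR-30e-3p differ by the single substitution G18A, and miR-30a-5p and miR-30e-5p by C13U, so neither pair differs in its seed. Mir30a lies on chromosome 1 (chr1:23272269-23272339, plus strand) and Mir30c-2 near it (chr1:23291701-23291784, plus strand). Mir30e (chr4:120772606-120772697, minus strand) and Mir30c-1 (chr4:120769534-120769622, minus strand) both lie within the span of the protein-coding gene Nfyc. The span of Mir30e also overlaps that of Mir30f.

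Library totals were 1621 to 2331 hybrid reads in WT and 1661 to 5341 in HM, of which 701 to 1091 and 1585 to 5113 carried a 3p strand. A count of 0 allows up to 3 reads, or 0.0562% to 0.185% of a library, and such limits and all intervals cover counting error only. All 12 miRNA markers of pluripotent embryonic cells had hybrids, with 33.1% to 36.4% of reads in WT and 56.7% to 59.0% in HM. These are shares of all hybrids, of which 911 to 1233 reads carried a 5p strand in WT and 70 to 194 in HM. Most of the 12 markers are 3p strands, and the part of this in their higher share was not tested. Of 7 markers of other tissues, 6 were at 0 and the other had 4 reads in all. HM libraries 1 and 2 did not differ over miRNAs beyond sampling noise (chi-square p = 0.961 over 51 miRNAs), but they shared only 5.02% of the sequences of the smaller library, against 1.28% to 4.05% in the other replicate pairs, and were kept as separate samples. Without HM library 1 the difference in the 3p share given below was 2.14 percentage points, beside 2.15 with it.

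miR-30 5p hybrids were found in all WT libraries and in no HM library. Counts are given below in the order of the replicate numbers. The 5p strands together counted 43, 47 and 36 reads in the WT libraries and 0, 0 and 0 in those of HM. As a share of all hybrids this was 2.23%, 2.02% and 2.22% in WT, with a mean of 2.16% ± 0.121 (SD, n = 3), and the genotypes did not overlap. Against 3 reads in each HM library, the share of all hybrids was at least 18.8-fold lower in HM, and the level per 3p hybrid at least 39.2-fold lower. Within the family, the 5p arm made up 91.5%, 95.9% and 78.3% of the reads of the WT libraries, a mean of 88.6% ± 9.19 (SD, n = 3), and 0 of 267 reads in HM, which allows a share of up to 1.12%. A two-sided exact permutation test gave p = 0.1 for both shares, the smallest that 3 against 3 libraries can give (0.12 after Benjamini-Hochberg adjustment over the 6 shares tested).

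The individual 5p strands followed the arm as a whole. In WT, miR-30e-5p had 16, 16 and 18 reads and miR-30a-5p had 13, 20 and 8. miR-30d-5p had 9, 3 and 5 reads and miR-30c-5p had 5, 6 and 3. miR-30b-5p had 0, 2 and 2 reads, and each of these 5 strands had 0 reads in every HM library. With reads summed per miRNA and scaled to the 3p hybrids of a library, 8 of the 11 members reached the minimum of 10 reads and 6 of the 8 passed the test, against 59.6% of all miRNAs tested (15 higher and 41 lower in HM, or 32 and 31 when reads were scaled to all hybrids). The 4 that fell were miR-30a-5p, miR-30e-5p, miR-30c-5p and miR-30d-5p, where 43.6% of all miRNAs tested fell, and the adjusted p of edgeR's quasi-likelihood test was 1.17e-21, 5.45e-25, 1.04e-07 and 1.42e-09, respectively. Against 3 reads in each HM library, the level per 3p hybrid was lower in HM by at least 12.2-fold for miR-30a-5p, 16-fold for miR-30e-5p, 4.23-fold for miR-30c-5p and 5.47-fold for miR-30d-5p. Among other 5p strands with 10 to 60 reads in WT, 10 of 17 also had 0 reads in HM, and 173 of the 186 HM reads of those 17 strands came from 1 strand.

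**Figure D1:**
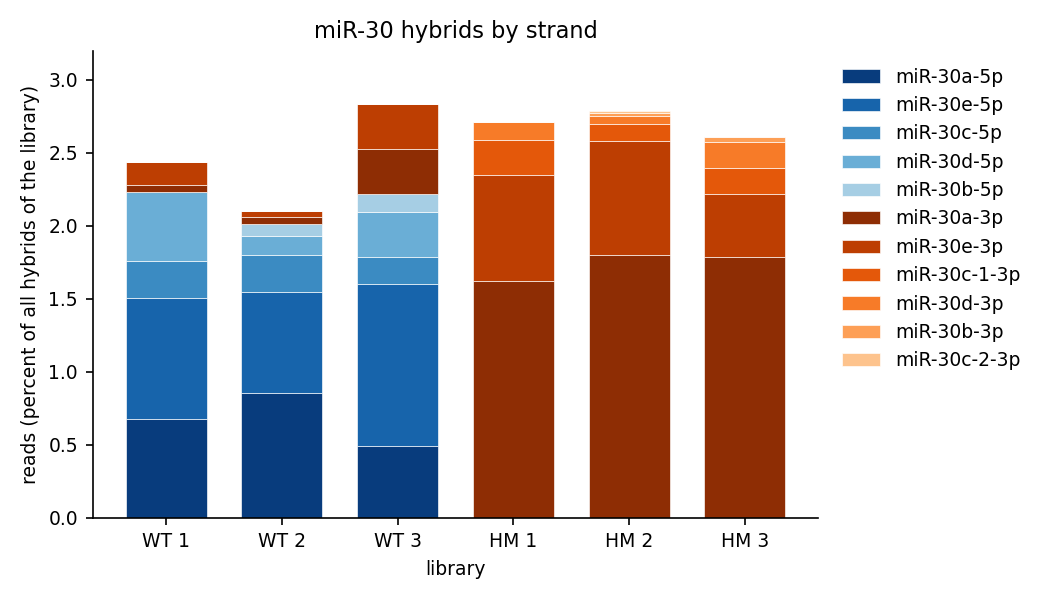
Reads of each miR-30 strand as a percent of all hybrids of a library (y axis) for the 3 WT and 3 HM libraries (x axis), stacked, with 5p strands in blue and 3p strands in orange. The whole family takes between 2.10% and 2.84% of a library in both genotypes, but the blue part is present in WT only.

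The 3p strands moved in the opposite direction. The 6 strands together counted 4, 2 and 10 reads in the WT libraries, against 45, 149 and 73 in HM. Their share of all 3p hybrids was 0.437%, 0.183% and 1.43% in WT and 2.84%, 2.91% and 2.73% in HM, so each HM library was above each WT library. The means were 0.682% ± 0.657 and 2.83% ± 0.0904 (SD, n = 3 each), 4.15-fold higher in HM, with p = 0.1 by the two-sided exact permutation test. As a share of all hybrids the ratio was 8.91. WT library 3 held 10 of the 16 WT reads, and the WT mean without it was 0.310% of 3p hybrids. The family as a whole took 2.46% ± 0.368 of all hybrids in WT and 2.70% ± 0.0901 in HM (SD, n = 3 each), a difference within the spread between libraries (exact permutation p = 0.4). CLASH counts ligated hybrids, so more of a strand in the cell and more of it in AGO2 cannot be told apart here.

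Among the 3p strands miR-30a-3p had the most HM reads. It counted 1, 1 and 5 reads in the WT libraries, against 27, 96 and 50 in HM, and rose by 2.80 on the log2 scale per 3p hybrid (SE 0.45, edgeR adjusted p = 5.17e-09). That value was 4.14 without WT library 3 and 3.83 with reads scaled to all hybrids. miR-30c-1-3p had 0 reads in every WT library and 4, 6 and 5 in HM, and was the other 3p member that passed (edgeR adjusted p = 0.0248), so that 2 of 8 members rose, where 16% of all miRNAs tested rose. No fold is given for it, since 3 reads in a WT library exceed its level per 3p hybrid in HM, and its call was lost without WT library 2 or 3 (edgeR adjusted p = 0.128 and 0.0615), with no minimum of reads (edgeR adjusted p = 0.0637) and with DESeq2 (adjusted p = 0.0750).

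For miR-30e-3p the WT counts were 3, 1 and 5, against 12, 42 and 12 in HM. Per 3p hybrid it was above all WT libraries in 2 of 3 HM libraries, with a log2 difference of 1.04 (SE 0.51, edgeR adjusted p = 0.0679), which did not pass. Scaled to all hybrids the difference was 2.07 and passed (edgeR adjusted p = 3.47e-05), as it did with TMM (1.47, edgeR adjusted p = 0.00637) and with DESeq2 (1.84, adjusted p = 0.00724). It also passed without WT library 3 (1.79, adjusted p = 0.00610) or HM library 3 (1.25, adjusted p = 0.0229) in edgeR. miR-30d-3p had 0 reads in WT and 2, 3 and 5 in HM and did not pass (edgeR adjusted p = 0.0894, and 0.0193 scaled to all hybrids). miR-30b-3p had 2 reads and miR-30c-2-3p 1 read, all in HM. The composition of the 3p arm also differed, since miR-30a-3p made up 41.7% ± 14.4 of the miR-30 3p reads in WT and 64.3% ± 4.25 in HM (SD, n = 3 each, exact permutation p = 0.1), with each HM library above each WT library but only 2 to 10 reads behind each WT value.

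The miRNA part of the hybrids showed where each strand began. The start was compared with the RefSeq strand over 8 nt, a comparison that was chosen after its values had been seen and is given as a description. The commonest miRNA parts are shown as read, with bases 2 to 8 counted from their own first base in capitals, because the seed of miR-30a-3p as read is not the seed of the RefSeq strand.
miR-30a-5p, 38 of 41 reads: tGTAAACAtcctcgactggaag
miR-30e-5p, 47 of 50 reads: tGTAAACAtccttgactggaag
miR-30a-3p, 114 of 180 reads: tTTCAGTCggatgtttgcagc
miR-30e-3p, 45 of 75 reads: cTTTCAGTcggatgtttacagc
miR-30c-1-3p, 8 of 15 reads: tGGGAGAGggttgtttactcc
The 5p strands began at base 1, in 39 of 39 placed reads of miR-30a-5p and 49 of 50 of miR-30e-5p. miR-30a-3p began at base 2 in 164 of 175 placed reads (93.7%, exact 95% interval 89% to 96.8%). miR-30e-3p began at base 1 in 63 of 70 placed reads, and at base 2 in the other 7 (10.0%, interval 4.12% to 19.5%).

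The difference between these 3p strands was seen in each HM library. Reads of miR-30a-3p that began at base 2 were 26 of 27, 90 of 93 and 44 of 48 in HM libraries 1 to 3, a mean of 94.9% ± 2.82 (SD, n = 3). For miR-30e-3p the numbers were 1 of 11, 5 of 40 and 1 of 11, a mean of 10.2% ± 1.97 (SD, n = 3), so the strands did not overlap in any HM library. In WT the reads were few, with 4 of 7 placed miR-30a-3p reads and 0 of 8 placed miR-30e-3p reads beginning at base 2. Of the 61 strands of the whole table with at least 20 reads, miR-30a-3p was the 1 strand with a majority of such starts, 4 had more than 20%, and the median was 2.83%. miR-30c-1-3p, with too few reads for that count, began at base 2 in 9 of 14 placed reads (interval 35.1% to 87.2%).

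**Figure D2:**
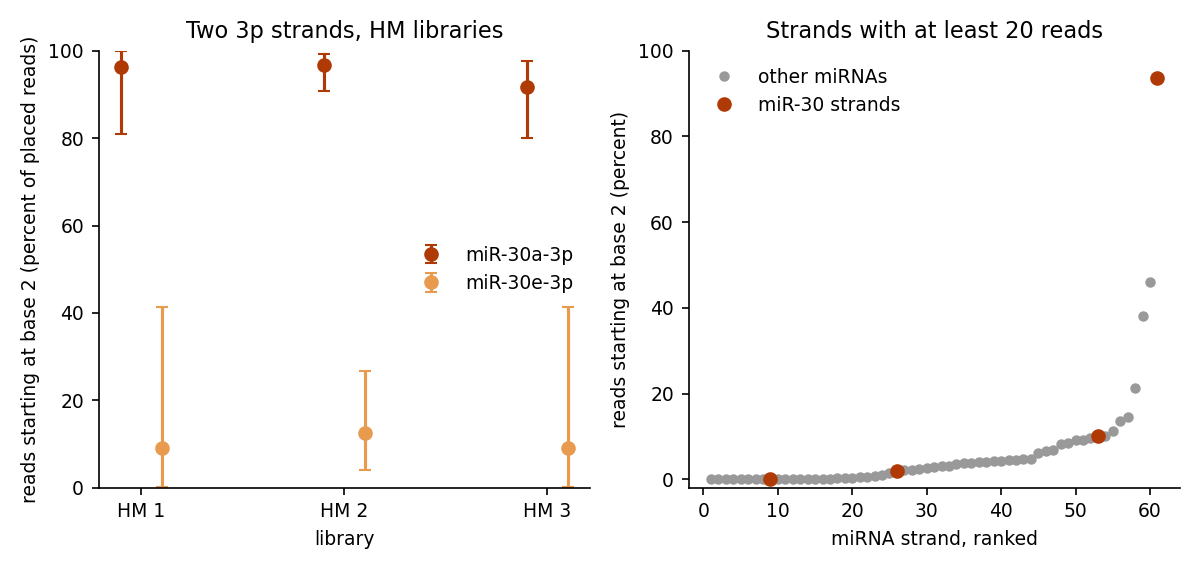
Left, percent of placed reads that begin at base 2 of the RefSeq strand (y axis) for miR-30a-3p and miR-30e-3p in the 3 HM libraries (x axis), with exact 95% binomial intervals. Right, the same percent over all libraries (y axis) for the 61 strands with at least 20 reads, ranked (x axis), where miR-30a-3p stands at 93.7% and the next strand at 46.0%.

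The most frequent 6-base match in the target fragments shifted by the same base. Fragments were searched, in the orientation deposited, for the reverse complement of each run of 6 bases along the strand. For miR-30a-5p in WT the most frequent match was to bases 2 to 7 (GTTTAC, 34 of 41 reads, 82.9%), which 0.517% of the fragments joined to other miRNAs also held. For miR-30e-5p it was the same window, in 38 of 50 reads (76.0%). For miR-30e-3p in HM it was bases 2 to 7 (CTGAAA, 53 of 66 reads, 80.3%), but for miR-30a-3p in HM it was bases 3 to 8 (ACTGAA, 141 of 173 reads, 81.5%), and 0.563% of other fragments held either of these. Matches that started at base 4 (GACTGA) were in 59.0% of miR-30a-3p reads and 12.1% of miR-30e-3p reads in HM, and in 0.314% of other fragments. The authors had kept only hybrids of predicted miRNA and gene pairs, and the part of that step in these shares was not tested.

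**Figure D3:**
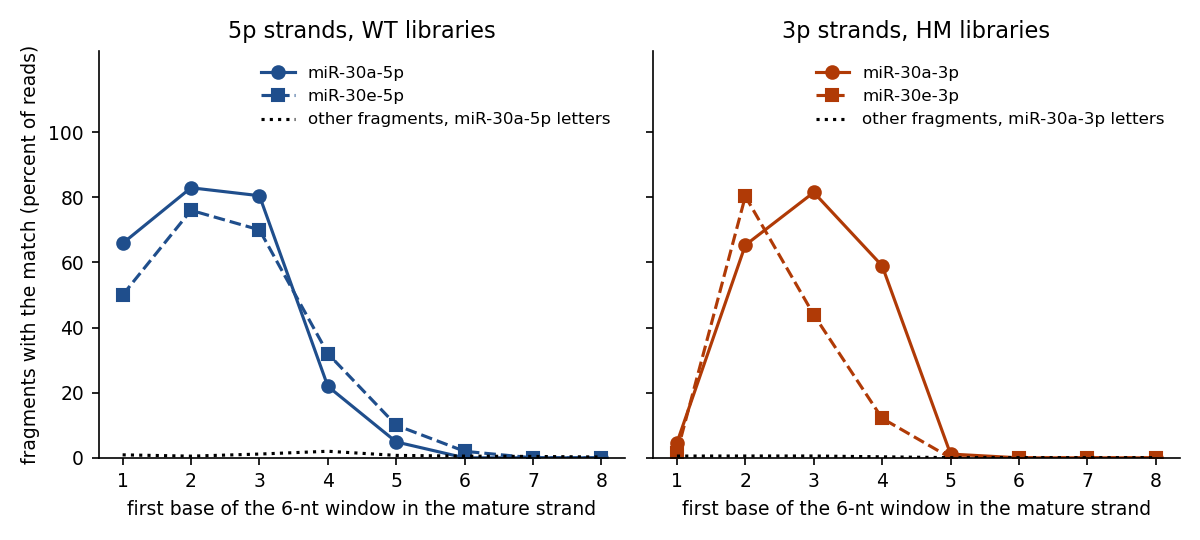
Percent of reads whose target fragment holds the reverse complement of a 6-nt window (y axis) against the first base of the window in the RefSeq strand (x axis), for 5p strands in WT (left) and 3p strands in HM (right), with reads of each genotype pooled. The dotted line is the percent among fragments of other miRNAs for the miR-30a letters, and the peak is at base 2 for miR-30a-5p, miR-30e-5p and miR-30e-3p and at base 3 for miR-30a-3p.

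The same held within HM libraries. Matches to bases 2 to 7 were in 65.0% ± 7.87 of miR-30a-3p reads and 81.7% ± 2.75 of miR-30e-3p reads, lower for miR-30a-3p in 3 of 3 libraries. Matches to bases 3 to 8 were in 82.8% ± 3.19 and 46.8% ± 17.6, higher for miR-30a-3p in 3 of 3 libraries (SD, n = 3 throughout). Matches to the 7 bases 3 to 9 (GACTGAA) were in 57.9% ± 3.42 and 12.3% ± 4.18, again higher in 3 of 3, whereas those to bases 2 to 8 (ACTGAAA, which shares 6 letters with it) were in 57.8% ± 5.50 and 41.7% ± 22.0 and higher in 2 of 3. Some fragments held the match to bases 3 to 9 but not to bases 2 to 8. In HM these were 31 of 173 miR-30a-3p reads (17.9%, interval 12.5% to 24.5%), from 18 genes. For miR-30e-3p they were 2 of 66 reads (3.03%, interval 0.369% to 10.5%). The reverse, a match to bases 2 to 8 but not to 3 to 9, was about as frequent for miR-30a-3p. It was in 29 of 173 reads (16.8%, interval 11.5% to 23.2%), from 22 genes. For miR-30e-3p it was in 19 of 66 reads (28.8%, interval 18.3% to 41.3%). Both matches were in 70 of the miR-30a-3p reads and 6 of the miR-30e-3p reads. The 10 miR-30a-3p reads of both genotypes that began at base 1 all matched bases 2 to 7, and 0 of them matched bases 3 to 9.

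Seed matches were compared between the arms that carried the family in each genotype, so arm and genotype cannot be told apart here. With bases 2 to 7 of the RefSeq strand, matches were in 91.2%, 76.2% and 72.4% of 5p reads in WT libraries 1 to 3 and in 76.7%, 72.4% and 64.2% of 3p reads in HM libraries 1 to 3, so the groups overlapped. The means were 79.9% ± 9.92 and 71.1% ± 6.38 (SD, n = 3 each, exact permutation p = 0.5). With the 7-base match to bases 2 to 8, the shares were 72.1% ± 2.72 (69.0% to 73.8%) in WT and 53.4% ± 8.19 (47.8% to 62.8%) in HM, and each HM library was below each WT library (exact permutation p = 0.1, the smallest possible). When the seed was read from the first base of each hybrid, the shares were 77.4% ± 9.80 and 80.7% ± 1.52 (exact permutation p = 0.6), and the order of the means was turned. That reading also covered the miR-30b and miR-30d strands. The few 3p reads of WT matched bases 2 to 7 of the RefSeq strand in 13 of 16 and bases 2 to 8 in 43.75%. The pooled 3p reads of HM did so in 71.0% and 51.4%.

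The 5p hybrids of WT named 89 target genes, of which 20 had at least 2 reads and 3 were seen in all 3 WT libraries. Tnrc6a, which encodes a GW182 scaffold protein that joins Argonaute to the deadenylase machinery, had the most, with 4, 4 and 3 reads, from miR-30a-5p, miR-30d-5p and miR-30e-5p. Alg2, a mannosyltransferase of N-glycan synthesis, had 2, 1 and 1 reads, and Pgam1, a glycolytic enzyme, had 1, 1 and 1. Fam43a had 3, 0 and 1 reads and Itfg1 had 2, 2 and 0. C7orf43 followed with 3 reads. Kmt2a, Mkrn3, Rhebl1 and Rnf220 had 2 reads each and are named out of 14 genes tied at 2 reads, by the number of libraries and then by name. All of these genes had 0 reads with a 5p strand in HM, where no miR-30 5p read was found at all.

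In HM the 3p hybrids named 178 target genes, of which 41 had at least 2 reads and 7 were seen in all 3 libraries. Znf148 (Zfp148 in the RefSeq table), a zinc finger transcription factor, had 1, 5 and 3 reads, all with miR-30a-3p. Dyrk2, a protein kinase, had 3, 2 and 2 reads, from miR-30a-3p, miR-30d-3p and miR-30e-3p. Usp53, of the ubiquitin-specific protease family, had 2, 2 and 3 reads. These genes had 0 reads with a 3p strand in WT. They were chosen by their HM reads, and WT held only 16 miR-30 3p reads in all, so the zeros show no loss or gain of single genes.

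Ptges3, which encodes the p23 cochaperone of HSP90, had 2, 3 and 1 reads. Peg10, an imprinted gene derived from a retrotransposon, had 0, 3 and 3 reads, and 2 in WT library 3. Serbp1, an mRNA-binding protein, had 1, 3 and 1 reads. Gigyf1, a partner in translational repression, had 3, 2 and 0 reads. Ptar1, Mapre1, Rtn3 and Stk35 had 4 reads each. Tnrc6b, Cdc42, Fmr1 and Kif1b had 3 each and are named out of 9 genes tied at 3 reads, by the same order. Most targets rested on a single read (137 of 178), so an order among genes with few reads cannot be drawn at this depth.

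**Figure D4:**
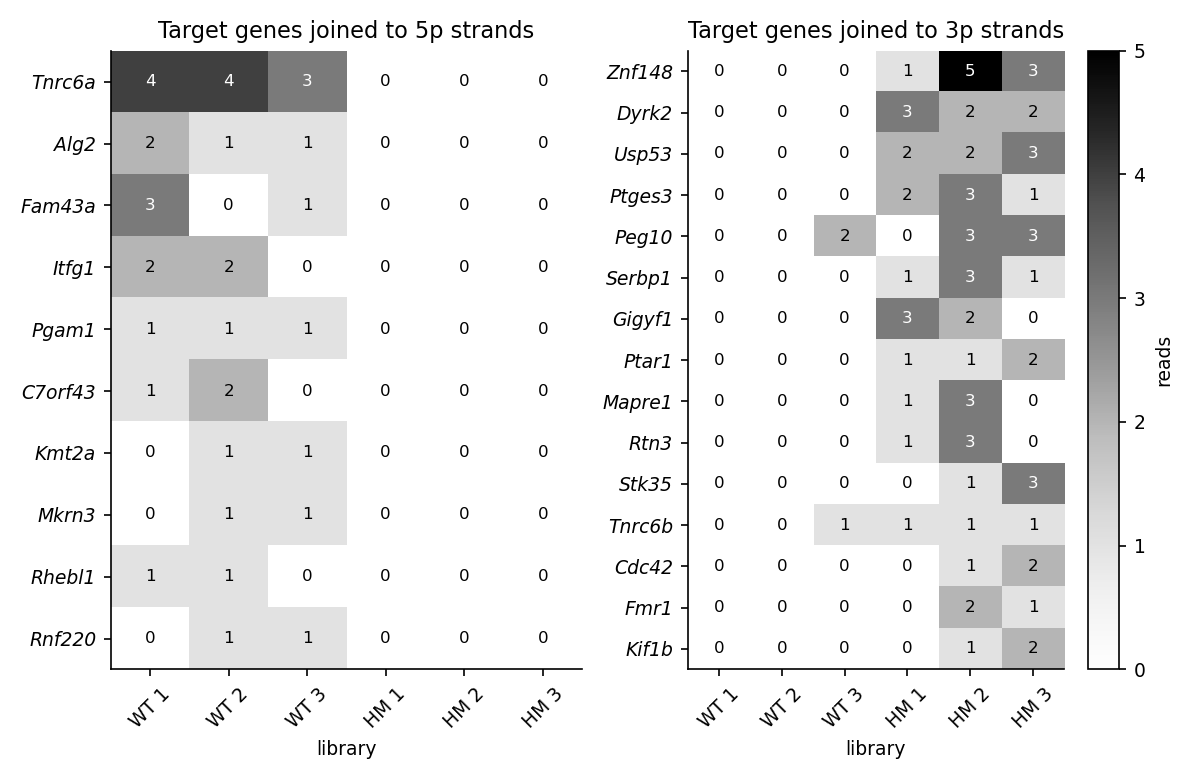
Reads of 10 target genes with the most 5p reads in WT (left) and 15 with the most 3p reads in HM (right, ties cut by libraries and name), in the 6 libraries (columns), with the number of reads printed in each cell and shown by the grey scale. The 5p column blocks of HM hold 0 throughout, and of the 15 genes at right only Peg10 and Tnrc6b have a 3p read in WT, in WT library 3.

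The fragments of these genes show the sites behind the counts. Each is printed as read in 1 hybrid, in capitals where it pairs without a gap or wobble to the first bases of the RefSeq strand. The position of a fragment in the genome is not in the table, beyond the alignment to 3′ UTRs of coding genes.
Tnrc6a with miR-30a-5p, WT library 1, bases 1 to 8: cggtgaaccttctTGTTTACAgattttttt
Alg2 with miR-30a-5p, WT library 1, bases 2 to 8: aactgttcgttgtTGTTTACctgtt
Kmt2a with miR-30a-5p, WT library 3, bases 1 to 8: ctcctctgttcTGTTTACAgtt
Znf148 with miR-30a-3p, HM library 2, bases 3 to 9: ggatgcgcctacctatGACTGAAcctt
Gigyf1 with miR-30a-3p, HM library 2, bases 3 to 9: cctgttgtGACTGAAtgtaa
Usp53 with miR-30a-3p, HM library 1, bases 2 to 9: gttatgtaagactGACTGAAAtag
Ptges3 with miR-30a-3p, HM library 2, bases 2 to 9: agtgttgtgacttGACTGAAAtaa
Dyrk2 with miR-30e-3p, HM library 2, bases 2 to 8: aactgtgtgtACTGAAAatatg
Peg10 with miR-30e-3p, HM library 2, bases 2 to 8: gtgatcttaaaattACTGAAAtttt
All 9 Znf148 reads and all 5 Gigyf1 reads paired to bases 3 to 9, which are the bases 2 to 8 of a strand that begins 1 base later. Of the Gigyf1 reads, 4 came from miR-30a-3p and 1 from miR-30e-3p. All 7 Usp53 reads and 5 of 6 Ptges3 reads paired to bases 2 to 9. In Dyrk2 and Peg10, all matched reads of miR-30a-3p and miR-30e-3p paired to bases 2 to 8. Of the 11 Tnrc6a reads, 4 held the match to bases 1 to 8, 6 others held no match of 6 bases, and 1 came from miR-30d-5p, which was not searched.

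Gid4 and Ptpn21, which the study chose for reporter assays of miR-30a-3p, were among the thinner targets. Gid4, the substrate receptor of a ubiquitin ligase, had 1 read in WT library 3 and 1 in HM library 2. Ptpn21, a protein tyrosine phosphatase, had 2 reads, both in HM library 2. Because the study selected these genes, their presence among the targets is no independent evidence. All 4 fragments paired to bases 2 to 9 of miR-30a-3p, as shown for 1 HM hybrid of each.
Gid4, HM library 2: ccggaaaggatGACTGAAAtgt
Ptpn21, HM library 2: tgatttttattGACTGAAAatga

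Target genes were compared between the arms. Of the 89 genes joined to 5p strands in WT and the 178 joined to 3p strands in HM, 9 were shared, which was 10.1% of the first list and 5.06% of the second. Of the 2490 genes with any hybrid in HM, 7.15% were joined to a 3p strand there, and of the 1953 with any hybrid in WT, 4.56% were joined to a 5p strand. Whether the overlap differed from these shares was not tested. These were Cd164, Gigyf1, Kdm5a, Kmt2a, Mgea5 (Oga in RefSeq), Peg10, Stk35, Taok1 and Tmem194a (Nemp1 in RefSeq), and only Kmt2a and Peg10 had at least 2 reads in both. Kmt2a, a histone methyltransferase, counted 0, 1 and 1 reads with 5p strands in the WT libraries, and with 3p strands 1, 0 and 2 reads in HM. Its fragments came from separate stretches of the gene, as the hybrid of miR-30a-3p in HM library 3 shows beside the 5p hybrid above.
Kmt2a with miR-30a-3p, HM library 3, bases 3 to 9: ctctacgaaaGACTGAAtgta
The 3p targets of the genotypes overlapped for 6 of the 15 genes seen in WT (Gid4, Hira, Peg10, Relt, Tfrc and Tnrc6b), which was 3.37% of the HM list. Within HM, 14 genes were joined to both miR-30a-3p and miR-30e-3p, or 12.2% of 115 and 24.6% of 57 genes. Beside this, 7.15% of the 2490 genes with any hybrid in HM were joined to some miR-30 3p strand. Of the same 2490 genes, 115 were joined to miR-30a-3p and 57 to miR-30e-3p, so each strand alone had a lower share. These strands share their RefSeq seed and only predicted pairs had been kept, and the part of this in the overlap was not tested.

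Gene groups were described by their counts, beside the share of all 3200 genes with a hybrid in either genotype that were joined to the arm (2.78% for 5p strands in WT and 5.56% for 3p strands in HM). Each group was a chosen list, and genes of the same kind outside the list were not counted. Of 26 genes known as miR-30 5p targets from other work, 9 had any hybrid, and 2 were joined to a 5p strand in WT, Tnrc6a and the ubiquitin ligase Nedd4 (1 read). Of 31 chromatin regulators with a hybrid, 2 were joined to 5p strands in WT (Kdm5a and Kmt2a) and 7 to 3p strands in HM, of which Kmt2a had 3 reads and Chd4, Chd7, Ep300, Kdm5a, Kmt2c and Tet3 had 1 each, all in HM library 2. Of 15 genes of the RNA silencing machinery with a hybrid, 1 was joined to 5p strands in WT (Tnrc6a) and 2 to 3p strands in HM, the GW182 gene Tnrc6b with 3 reads and the deadenylase subunit gene Cnot6l with 2. Of 30 listed genes for ubiquitin ligases and their adaptors with a hybrid, 3 were joined to 5p strands (Cul4b, Mdm4 and Nedd4, with 1 read each) and 1 to 3p strands (Gid4). Outside that list, Rnf220, Mkrn3 and Rnf6 were joined to 5p strands in WT. Rnf128, Arel1 and Fem1b, also outside it, were joined to 3p strands in HM. On the lists, 8 autophagy genes, 25 genes of the TGF-beta, BMP, Notch and Wnt pathways and 5 pluripotency factors had a hybrid. None of them was joined to either arm. Outside these lists, Gdf7, Amer1 and Bcl9 were joined to 5p strands in WT and Frat2 to a 3p strand in HM. With so few reads, each of these counts could change with 1 or 2 hybrids.

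The hybrids of other miRNAs on the same genes were tested as a readout without the reads that had chosen them. This readout is not independent of the choice, because the 5p list was drawn from WT and the 3p list from HM. A gene with more hybrids in a genotype could enter the list of that genotype more easily, and the size of this link was not tested. All hybrids of a gene except those of miR-30 were summed and scaled to all hybrids of a library, a setting chosen after the data had been seen. Of the 89 genes of the 5p list, 20 had at least 10 such reads, and 4 of the 20 passed, against 16.8% of the 339 genes tested. These were 2 genes higher in HM (Gigyf1 and Kmt2a) and 2 lower (Tnrc6a and Tmcc1), where 5.9% and 10.9% of all genes tested were higher and lower. Of the 178 genes of the 3p list, 35 had enough reads and 7 passed. Of these, 3 were higher (Fmr1, Gigyf1 and Kmt2a) and 4 lower (Fjx1, Gnas, Morf4l2 and Serinc1). Fmr1 had 0 such reads in WT. Gnas (3, 6 and 1 reads in WT) and Morf4l2 (5, 2 and 5) had 0 in HM. These 3 genes reached the minimum through 1 genotype only, so their calls are not independent of that minimum. Of all 339 genes tested, 20 were at 0 in a genotype. Tmcc1, Fjx1, Gnas, Morf4l2 and Serinc1 are named after their values were seen. With miR-30 hybrids included, several of these calls were lost under other settings. Gnas was not called without HM library 1, 2 or 3, Serinc1 without WT library 1 or 3 or HM library 2 or 3, and Tmcc1 without WT library 2 or HM library 2. DESeq2 did not call Fmr1, Morf4l2, Serinc1 or Tmcc1 (adjusted p = 0.0926, 0.0917, 0.160 and 0.180), and with no minimum of reads edgeR did not call Gnas, Serinc1 or Tmcc1 (adjusted p = 0.251, 0.130 and 0.204). Gnas was also lost with TMM (edgeR adjusted p = 0.0531) and Tmcc1 with each entry counted once (edgeR adjusted p = 0.0749). Fjx1 and Tnrc6a were called under each of the 14 alternatives. All of these except the fit of other miRNAs held the miR-30 reads that had placed the genes in their lists. For Tnrc6a the log2 difference was -2.47 with the miR-30 hybrids and -1.85 without them. The fit of other miRNAs was not repeated under the other settings. In both lists 20% of the tested genes passed, near the share among all genes. The median log2 difference was 0.51 in each, beside 0.27 over all genes tested. With genes at 0 in a genotype set to the bound that 3 reads per library allow, the medians were 0.21, 0.50 and 0.23. Directions depended on the scale, since 20 genes were higher and 37 lower with all hybrids as the total but 1 higher and 68 lower with 3p hybrids, in the fit that included miR-30.

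With other miRNAs Tnrc6a counted 8, 4 and 8 reads in the WT libraries, against 1, 4 and 4 in HM, and fell by 1.85 on the log2 scale (SE 0.64, edgeR adjusted p = 0.0309). Apart from 1 read of miR-302c-3p, these WT reads came from 5p strands. The largest numbers were from miR-26a-5p (4, all in WT library 3) and miR-106a-5p (3), with the others spread over further strands. In HM miR-20b-5p, miR-302c-3p and miR-19b-3p had 2 reads each, and miR-374b-5p, miR-23b-3p and miR-301a-3p had 1 each. Whether this fall differed from that of 5p hybrids in general was not tested. Gigyf1 counted 0, 3 and 0 reads, against 8, 17 and 7 in HM, and rose by 2.60 (SE 0.77, edgeR adjusted p = 0.0106). With miR-30 hybrids included, the Gigyf1 call was lost when reads were scaled to 3p hybrids (edgeR adjusted p = 0.170), without WT library 1 (edgeR adjusted p = 0.0568) and with DESeq2 (adjusted p = 0.0995). Kmt2a counted 9, 8 and 11 reads, against 14, 47 and 32 in HM, a log2 rise of 0.99 (SE 0.37, edgeR adjusted p = 0.0435), but its adjusted p was 0.0533 with the miR-30 hybrids included, and with reads scaled to 3p hybrids the difference was -0.11. Fmr1, whose protein binds mRNAs, had 0 reads with other miRNAs in WT and 3, 12 and 2 in HM (edgeR adjusted p = 0.00882).

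Peg10 had the most hybrids of the genes above. Its reads with other miRNAs were 10, 22 and 32 in the WT libraries, against 24, 85 and 45 in HM, those in HM mostly from miR-302a-3p, miR-302b-3p and miR-302d-3p. The log2 difference of 0.50 (SE 0.29) did not pass (edgeR adjusted p = 0.294). Znf148, Dyrk2 and Tnrc6b did not pass either (edgeR adjusted p = 0.570 for each). Over target genes as a whole with miR-30 hybrids included, 57 of 344 genes passed (16.6%, with 5.81% higher and 10.8% lower in HM). Of 316 pairs of a miR-30 strand and a gene, none reached 10 reads, and the most frequent, miR-30a-3p with Znf148, had 9, so no miR-30 pair entered the test of pairs, in which 22 of 140 pairs passed (15.7%, with 2.14% higher and 13.6% lower in HM). Of those pairs 3 were higher and 19 lower with 3p hybrids as the total, and 20 were higher and 13 lower with all hybrids.

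The miRNAs whose reads followed miR-30a-3p and miR-30a-5p most closely over the 6 libraries were ranked by the root mean square difference of their centred log2 normalised read counts, over 93 other miRNAs with at least 10 reads. For miR-30a-3p they were miR-99b-3p (0.18), miR-20b-3p (0.46), miR-106a-3p (0.66), miR-20a-3p (0.70) and miR-18a-3p (0.81), all 3p strands with 19 to 178 reads in HM and 0 to 4 in WT. For miR-30a-5p they were miR-191-5p (0.24), miR-106a-5p (0.36), miR-298-5p (0.36), miR-290a-5p (0.44) and miR-30e-5p (0.45), all 5p strands. miR-106a-5p had 375 reads in WT and 13 in HM, and the other 4 had 31 to 78 in WT and 0 in HM.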

How the data were processed

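The authors immunoprecipitated AGO2 from cross-linked cells, ligated miRNAs to their targets, named the miRNAs with QuagmiR, aligned the targets to mouse 3′ UTRs with Bowtie2 and kept pairs predicted by TargetScan. Versions, genome build and handling of duplicates are not given in the sources used here. The deposited table holds raw read counts per distinct hybrid (406 entries for miR-30, 403 with 1 read). Groups and replicates came from sample titles. Reads were summed per miRNA, gene and pair. Features with at least 10 reads entered edgeR 4.0.16 in R 4.3.3 for its quasi-likelihood test (Benjamini-Hochberg, threshold 0.05), with 3p hybrids as library totals for miRNAs and pairs and all hybrids for genes. Shares were compared by two-sided exact permutation tests (scipy 1.17.1), with exact 95% binomial (Clopper-Pearson) intervals. Gene names were kept as deposited, and of 267 target genes 247 matched a RefSeq symbol and 13 a synonym. The text names the 10 genes with most 5p reads in WT, the 15 with most 3p reads in HM, those of both arms, Gid4, Ptpn21 (ties by libraries, then name) and joined genes of each list (up to 6, and all 7 chromatin regulators). Genes said to lie outside a list were named after their values were seen. Members, lists and tests were chosen with earlier results of these data known. Scripts were tested on simulated data with a 4-fold change, which was recovered for 65.2% of changed miRNAs, 43% of genes and 2.86% of pairs. False calls were 0, 2 and 0, respectively. A feature that did not pass may therefore still have changed. Alternatives were other library totals, TMM, DESeq2 1.42.0, other read minimums, each entry counted once, a replicate block and leaving out each library.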

Additional observations from a re-analysis of the deposited data

How the results depend on the processing

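The 5p share of miR-30 hybrids, the 5p share of all hybrids and the 3p share of 3p hybrids kept their direction under each of 10, 10 and 11 alternatives, with differences of -93.7 to -84.9, -2.22 to -2.12 and 1.90 to 2.52 percentage points when single libraries were left out. The calls of miR-30a-3p, miR-30a-5p, miR-30e-5p, miR-30c-5p and miR-30d-5p were kept under each alternative that could be run. The difference in seed matches between 5p reads in WT and 3p reads in HM was -8.81 points. It was -18.7 with the match to bases 2 to 8 (exact permutation p = 0.1) and -12.6 to -3.19 with single libraries left out. The difference was turned to 7.20 with a match to bases 2 to 7 or 3 to 8. With the seed read from each hybrid's own start it was turned to 3.32.

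Counts of calls moved with the read minimum and the tool. Of 56 miRNAs called, 35 were called at a minimum of 30 reads, and 40 to 61 with single libraries left out. Of 57 target genes, 14 were called by DESeq2, 23 with no minimum, 17 at a minimum of 30 reads and 34 with the replicate block, and 25 to 46 with single libraries left out. Of 22 pairs, 13 were called by DESeq2, 3 at a minimum of 30 reads, 13 with the replicate block and 8 to 17 with single libraries left out. At the higher minimum and with single libraries left out, fewer features or samples were tested, and the cause of the other shifts was not tested. Target genes in common fell from 9 to 2 with at least 2 reads per gene. With 3p totals the log2 differences of Kmt2a, Peg10 and Tnrc6b were turned to -0.11, -0.61 and -0.43. The median of all miRNAs was -0.72 with 3p totals and 0.33 with all hybrids.

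Whether replicate numbers pair the libraries was not tested. The deviations of same-numbered WT and HM libraries correlated at 0.11, -0.05 and 0.08, and those of other-numbered libraries at -0.13 to 0.06. With the replicate block, the exact p of each of the 3 miR-30 shares was 0.25, the smallest that 3 pairs allow, and 49 miRNAs were called. The block also left miR-30c-1-3p (edgeR adjusted p = 0.101), Gnas (0.108), Serinc1 (0.0815) and Tmcc1 (0.0815) without a call. The depth, at most 9 reads for a miR-30 pair, allowed no test of a single miR-30 target site.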
